A study of Arabidopsis thaliana with 15 samples.

Results

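The contrast described here asks whether Arabidopsis roots changed differently between 2 h and 6 h of exposure to naxillin than between 2 h and 6 h of exposure to NAA. It is the difference of the 2 changes over time, (naxillin 6 h minus naxillin 2 h) minus (NAA 6 h minus NAA 2 h), and is called the interaction below. It was chosen by the labels of the samples and used 12 of the 15 arrays, 3 in each of 4 groups: naxillin 6 h, naxillin 2 h, NAA 6 h and NAA 2 h. The other 3 arrays, from roots before transfer, entered no test and serve as a starting level. All 22746 probe sets that were not array controls were members. A positive interaction means that a log2 level went up more, or went down less, with naxillin than with NAA over these hours.

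All seedlings were Col-0, the common laboratory strain of Arabidopsis thaliana, and all had germinated on 10 µM NPA, so that every group had met this inhibitor. At 3 days after germination they were moved to 50 µM naxillin or to 10 µM NAA. The doses of the compounds differed, and the labels name no roots moved to medium without a compound. The interaction therefore compares these compounds at these doses, and any effect of transfer and elapsed time that was alike on both media is subtracted out. RNA came from pools of 500 root pieces cut without meristems, in 3 independent experiments.

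Auxin starts a lateral root by making pericycle cells near the vascular strands divide. It does so by triggering the breakdown of Aux/IAA repressors, which frees auxin response factors to switch on LBD16, LBD29 and other regulators; PUCHI acts later in the young primordium. NPA blocks polar auxin transport and holds this process back, NAA is a synthetic auxin, and naxillin is known in Arabidopsis as a compound that induces lateral roots by enhancing the conversion of the auxin precursor IBA into auxin.

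The values were log2 expression levels, so that 1 unit is a factor of 2. Array medians lay between 7.08 and 7.15, and arrays of a group correlated at 0.984 to 0.996. A principal component with 74% of the variance placed the 3 NAA 6 h arrays apart from the other 9. A gene name was available for 13513 of the probe sets, which stood for 13355 genes, and 11885 of the probe sets carried only a locus tag. None of the 8 root identity markers looked for (SHR, SCR, GL2, COBL9, CASP1, MYB36, CYP86A1 and GPAT5) and none of the 7 markers of meristem and root cap had a named probe set, so that the tissue could not be checked by them. In bulk RNA, fewer cells of a type and less RNA per cell cannot be told apart.

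The interaction was called for 6601 of the 22746 probe sets (29.0%) by limma's moderated test at a Benjamini-Hochberg adjusted p under 0.05. Of these, 3284 (14.4%) were positive and 3317 (14.6%) negative. NAA made most of this difference: its change over time was the larger in size at 6135 of the called probe sets (92.9%), against 71.9% over all probe sets tested. Between naxillin 6 h and naxillin 2 h, 390 probe sets (1.71%) changed, 124 (0.545%) upward and 266 (1.17%) downward, and between NAA 6 h and NAA 2 h, 9251 (40.7%) changed. Counted by gene, with 1 probe set each, 3562 of 13355 (26.7%) had a called interaction. A difference of at least 1 log2 over time was seen at 200 probe sets with naxillin and at 2825 with NAA.

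The changes over time had an SD across probe sets of 0.26 log2 with naxillin and 0.71 log2 with NAA. They share no array, and across the 22746 probe sets, which are not independent, they correlated weakly (Pearson 0.11, Spearman 0.03). All 3 NAA 6 h arrays stood above or below all 9 other treated arrays at 8860 probe sets (39.0%), and at 88% of those called for the interaction. The same held for the naxillin 6 h arrays at 5.13% of probe sets and for the naxillin 2 h arrays at 4.36%.

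**Figure D1:**
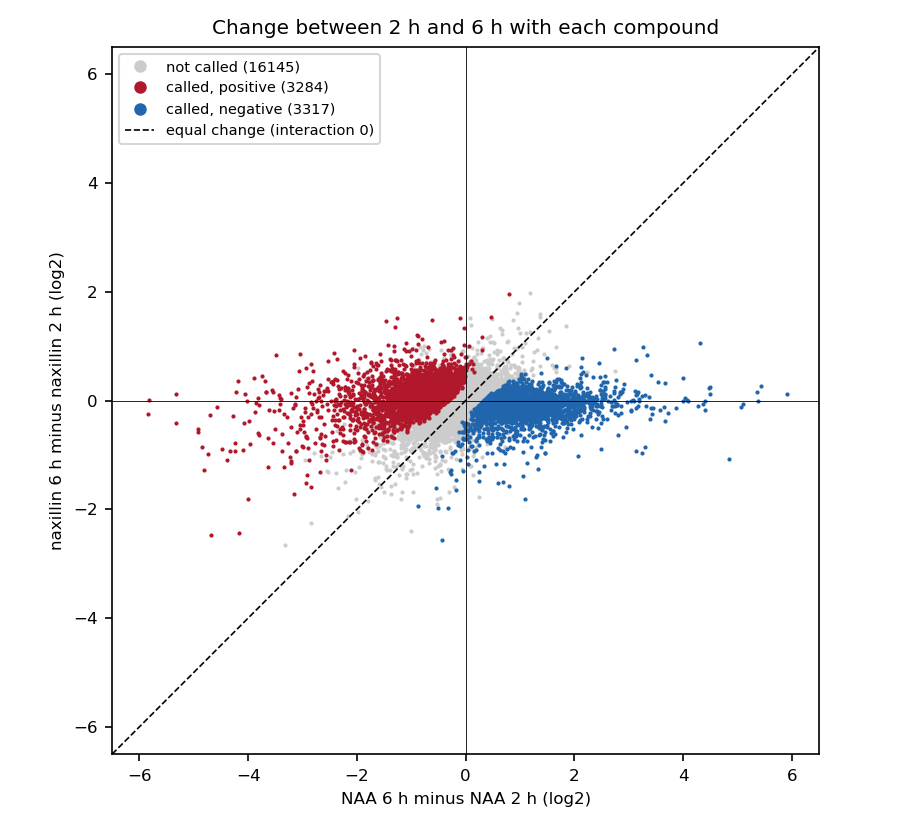
Each point is a probe set. The vertical axis is naxillin 6 h minus naxillin 2 h and the horizontal axis NAA 6 h minus NAA 2 h, both in log2 units; red and blue points have a called interaction, grey points do not, and the dashed line marks equal changes. The cloud is wide along the NAA axis (SD 0.71) and narrow along the naxillin axis (SD 0.26).

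The even split between positive and negative calls is relative to the median of each array. When each array was scaled on its bacterial poly-A spike-in controls instead, 1474 probe sets were called positive and 8304 negative, and the median interaction over all probe sets stood at -0.32, against 0.01 as deposited. The mean log2 level of those controls was 8.11 to 8.25 on naxillin 6 h arrays and 8.03 to 8.06 on naxillin 2 h arrays, against 7.79 to 7.92 on NAA 6 h arrays and 7.96 to 8.07 on NAA 2 h arrays. All directions below are therefore relative to the bulk of the transcripts on each array. Leaving out any 1 array left 5495 to 7151 interaction calls. Without number 1 of every group there were 2958 calls, without number 2 there were 3287, and without number 3 there were 5940. Calls over time with naxillin, 390 in all, numbered 75, 229 and 215 without naxillin 6 h array 1, 2 or 3, and 84 and 96 without naxillin 2 h array 2 or 3. They numbered 433 without naxillin 2 h array 1, 831 under spike-in scaling and 913 with the replicate number as a block.

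Sorted by a limit of 1 log2 on each change over time, 14 called probe sets were higher at 6 h with naxillin alone and 24 were lower with naxillin alone. With NAA alone, 1436 were higher at 6 h and 1006 lower. At 20, both compounds passed the limit the same way, and at 14 they passed it in opposite ways. The remaining 4087 differed between compounds although neither change reached 1 log2.

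The 12 largest negative interactions among named genes were all late rises with NAA. AT3G57950 (TAIR10.1, chr3:21460335-21461211) had log2 levels of 3.88, 3.99 and 3.85 in naxillin 6 h roots and 3.69, 3.66 and 3.90 in naxillin 2 h roots, against 9.24, 9.47 and 9.0 in NAA 6 h roots and 3.79, 3.82 and 4.03 in NAA 2 h roots. Only the NAA 6 h arrays stood high, with no overlap with the other 9. The interaction was -5.21 ± 0.17 (SE) log2, a 37-fold ratio, with an adjusted p of 1.17e-08 in limma.

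PR-1-LIKE (AT2G19990, chr2:8629857-8630688), a relative of the pathogenesis-related protein PR-1, had levels of 4.32, 4.47 and 4.19 in naxillin 6 h roots and 4.48, 4.39 and 4.47 in naxillin 2 h roots, against 9.37, 9.03 and 9.71 in NAA 6 h roots and 4.29, 4.31 and 4.31 in NAA 2 h roots. Again the NAA 6 h arrays alone were high, and the interaction was -5.18 ± 0.20 log2 (adjusted p = 2.99e-08). AT1G05577 showed the same picture, with 4.13 to 4.22 in naxillin 6 h roots, 4.11 to 4.31 in naxillin 2 h roots, 9.16 to 9.64 in NAA 6 h roots and 4.19 to 4.43 in NAA 2 h roots (interaction -5.16 ± 0.17, adjusted p = 1.17e-08).

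AT2G19970, whose gene lies 5232 bases from PR-1-LIKE on chromosome 2, was less even among replicates. Its levels were 8.19, 8.47 and 5.91 in naxillin 6 h roots and 8.38, 7.16 and 6.20 in naxillin 2 h roots, against 12.98, 12.93 and 12.76 in NAA 6 h roots and 8.33, 7.27 and 6.77 in NAA 2 h roots. The 3 NAA 6 h arrays were close together and far above the rest, whereas the other groups spread over more than 1 log2. The SE was 0.95 log2 around an interaction of -5.16, and the adjusted p was 0.002. These genes and AT5G47550 (-4.43), AT1G29270 (-4.42), AT5G02540 (-4.38), AT5G47440 (-4.07), AT5G14650 (-4.04), AT3G05470 (-4.01) and AT2G03740 (-3.94) are named in the annotation used by locus tag alone, apart from PR-1-LIKE.

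EXPA15, an expansin that loosens cell walls so that cells can extend, completed the 12. Its levels were 7.82, 7.0 and 9.14 in naxillin 6 h roots and 8.05, 9.38 and 9.42 in naxillin 2 h roots, against 11.74, 11.64 and 11.79 in NAA 6 h roots and 8.19, 8.06 and 9.20 in NAA 2 h roots. The NAA 6 h arrays lay above all others, and the naxillin groups overlapped each other. The interaction was -4.21 ± 0.72 log2 (adjusted p = 0.00129).

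The 12 largest positive interactions were all late losses with NAA. AT3G53980 (chr3:19987562-19988463) stood at 13.96, 13.94 and 13.94 in naxillin 6 h roots and 14.03, 13.92 and 13.85 in naxillin 2 h roots, against 7.79, 8.51 and 7.55 in NAA 6 h roots and 13.71, 13.85 and 13.75 in NAA 2 h roots. The level before transfer was 13.96 on average, so that naxillin roots and NAA 2 h roots were still close to it. The interaction of 5.83 ± 0.26 log2, a 56.8-fold ratio (adjusted p = 1.33e-07), was the largest among named genes in either direction.

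AT4G30450 had 12.17, 12.64 and 11.83 in naxillin 6 h roots and 12.71, 12.65 and 12.51 in naxillin 2 h roots, against 6.15, 6.15 and 6.06 in NAA 6 h roots and 11.75, 11.65 and 10.94 in NAA 2 h roots. All NAA arrays were below all naxillin arrays at the matching time, by little at 2 h and by much at 6 h (interaction 4.92 ± 0.31, adjusted p = 2.08e-06). ATSBT5.2 (AT1G20160), a subtilisin-type protease, followed the same course, with 9.63 to 10.55 in naxillin 6 h roots, 10.51 to 10.85 in naxillin 2 h roots, 4.24 to 4.49 in NAA 6 h roots and 8.90 to 9.58 in NAA 2 h roots (interaction 4.35 ± 0.32, adjusted p = 5.75e-06). The other 9, all known here by locus tag alone, were AT4G11190 (4.43), AT3G62040 (4.38), AT3G45160 (4.32), AT4G13580 (4.06), AT1G48750 (3.87), AT1G49470 (3.81), AT5G43180 (3.75), AT4G33550 (3.70) and AT2G37870 (3.70). In each of these 12 genes, picked for the size of the interaction, the NAA 6 h arrays lay below the other 9. The NAA 6 h arrays stood above or below the other 9 at 39% of all probe sets and at 88% of those called.

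**Figure D2:**
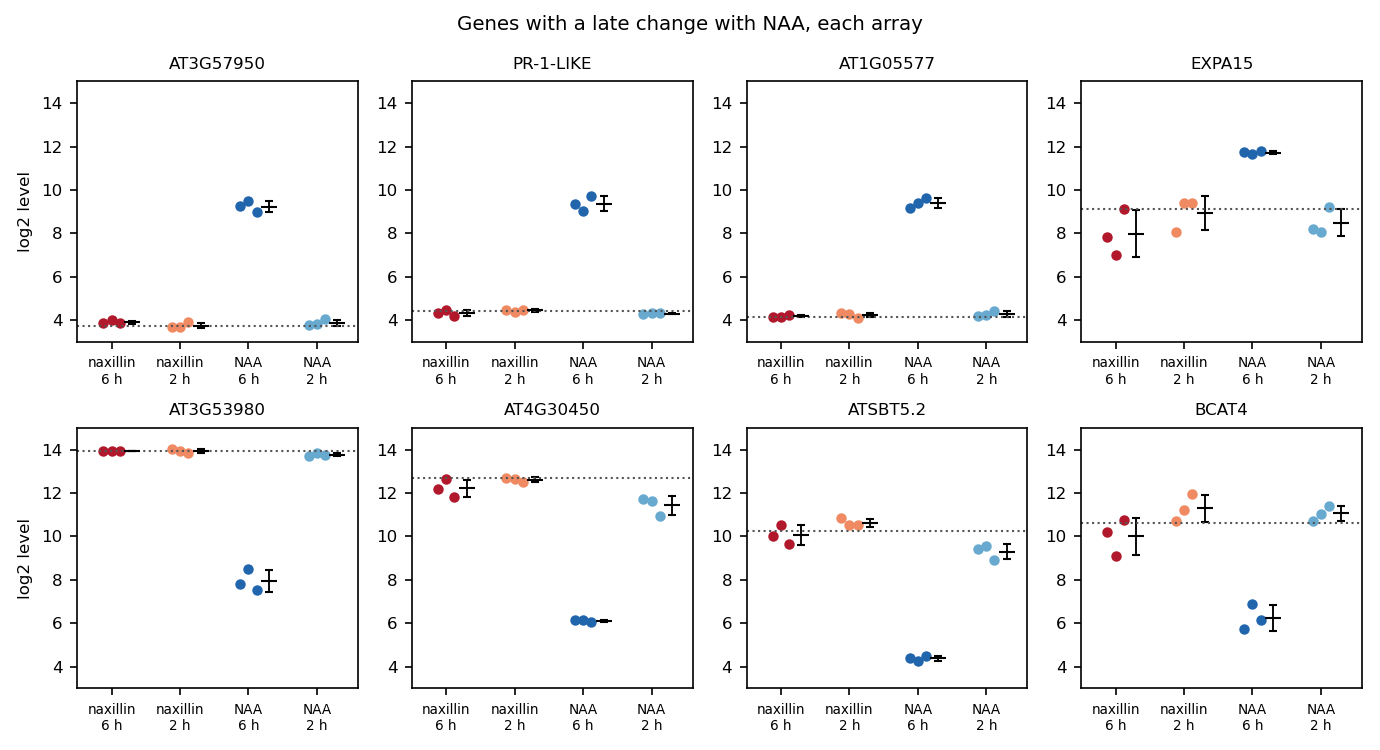
Log2 level on every array (coloured points) with the mean and SD of the 3 arrays beside them (black), for 8 genes; the dotted line is the mean before treatment. In the top row NAA 6 h is the high group (AT3G57950 averages 9.24) and in the bottom row it is the low group (AT3G53980 averages 7.95).

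The late rises and losses with NAA differed in the levels they started and ended at. Over the 298 probe sets with a called interaction of -2 or below, the median level was 6.07 in naxillin 6 h roots, 6.20 in naxillin 2 h roots, 9.13 in NAA 6 h roots and 6.70 in NAA 2 h roots. In 33 of the 298, the means of the 3 groups other than NAA 6 h were all under 4.76, the lower quartile of all values on these arrays. Over the 253 probe sets at 2 or above, the medians were 9.76 in naxillin 6 h roots, 9.90 in naxillin 2 h roots, 6.61 in NAA 6 h roots and 9.35 in NAA 2 h roots, and in 18 of them NAA 6 h was under that quartile. The table holds no detection calls, so that a fold that ends or starts at such a low level has no stated error from background.

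Genes that make ribosomes moved together. A listed gene counts as measured if it had a named probe set, which held for 321 of the 828 distinct genes on all lists. Counts for a list therefore cover only part of it. Ribosome assembly factors, which process ribosomal RNA and build the subunits in the nucleolus, had 22 measured members of 50 listed. All 22 were called negative, where 14.6% of all probe sets were. Their interactions ran from -2.45 to -0.94 with a median of -1.69, against 0.01 over all probe sets. All 22 rose between NAA 2 h and NAA 6 h, by 0.84 to 2.1 log2, where 19.5% of all probe sets rose. Their changes with naxillin ran from -0.35 to 0.20, and 0 of the 22 were called over time with naxillin. That lies near the 1.71% of all probe sets called there.

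The median member of that list stood at 8.40, 8.05 and 9.0 in naxillin 6 h roots and 8.36, 8.80 and 8.97 in naxillin 2 h roots, against 11.03, 11.15 and 10.99 in NAA 6 h roots and 9.48, 9.62 and 10.04 in NAA 2 h roots. The NAA groups did not overlap each other or the naxillin groups, and the naxillin groups overlapped. Before transfer the median member stood at 8.33 to 8.65, within the range of the naxillin arrays. The largest interaction of the list belonged to AT1G52930, with 8.27, 7.81 and 8.95 in naxillin 6 h roots and 8.10, 8.90 and 9.07 in naxillin 2 h roots, against 11.79, 11.91 and 11.80 in NAA 6 h roots and 9.48, 9.58 and 10.12 in NAA 2 h roots. Its interaction was -2.45 ± 0.42 (adjusted p = 0.00135), followed by AT2G37990 (-2.09), AT3G03920 (-1.98) and AT3G15460 (-1.95).

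Proteins of the ribosome itself moved the same way. Of the small-subunit proteins of the cytosolic ribosome, 41 of 41 measured genes (84 listed) were called negative, with a median of -1.28. Of the large-subunit proteins, 74 of 77 measured genes (121 listed) were, with a median of -1.24. The share called negative over all probe sets was 14.6%. The 3 large-subunit genes that were not called were AT3G48960 (-0.17), AT1G36240 (-0.12) and AT3G10950 (0.12), named here because they were the exceptions, after their values were seen. With naxillin the changes over time ran from -0.49 to 0.12 for the small and from -0.69 to 0.18 for the large subunit. No gene of either subunit was called over time with naxillin, where 1.71% of all probe sets were.

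Extremes within the small subunit were AT1G23410 and AT4G30800. AT1G23410 had 5.27, 5.04 and 5.83 in naxillin 6 h roots and 5.11, 5.68 and 5.86 in naxillin 2 h roots, against 9.65, 9.74 and 10.38 in NAA 6 h roots and 6.88, 7.40 and 7.50 in NAA 2 h roots. NAA roots were already above naxillin roots at 2 h and moved further away (interaction -2.84 ± 0.38, adjusted p = 0.000315). AT4G30800 had an interaction of -2.82 ± 0.51 (adjusted p = 0.00196). In the large subunit AT2G40010 (-2.02), AT1G07070 (-1.92), AT4G10450 (-1.92) and AT3G16780 (-1.92) were the most negative. Ribosomal protein genes come in near-identical copies whose probes can bind RNA of more than 1 copy, so that values of single copies are less certain than those of the group.

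These 3 counts were lower when a replicate number was left out of every group. Without number 2 of every group, 11 of 22 assembly factors, 15 of 41 small-subunit and 17 of 77 large-subunit genes were called negative, and without number 1 the counts were 16, 28 and 49; without number 3 they were 22, 41 and 73. Leaving out any 1 array left 22, 41 and 70 to 74, and no setting called any of them positive.

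The measured cell division genes rose late with NAA alone. All 4 measured DNA replication genes (27 listed) and all 6 measured mitosis genes (43 listed) were called negative, where 14.6% of all probe sets were. Their medians were -1.81 and -1.73. PRL, a subunit of the MCM helicase that opens DNA for replication, had 7.31, 6.82 and 7.67 in naxillin 6 h roots and 7.17, 7.03 and 7.56 in naxillin 2 h roots, against 9.48, 9.51 and 9.53 in NAA 6 h roots and 7.45, 7.0 and 7.60 in NAA 2 h roots. Only the NAA 6 h arrays stood apart (interaction -2.15 ± 0.30, adjusted p = 0.000417). PSF2, part of the GINS complex that travels with the helicase, had -1.83 ± 0.19, ICU2, the catalytic subunit of DNA polymerase alpha, had -1.78 ± 0.24, and AT5G26680 had -0.72 ± 0.10.

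Among the mitosis genes, AUR3, an Aurora kinase that acts on chromosomes in dividing cells, had 5.63, 5.62 and 5.54 in naxillin 6 h roots and 5.63, 5.38 and 5.79 in naxillin 2 h roots, against 7.78, 7.30 and 8.09 in NAA 6 h roots and 5.2, 5.15 and 5.36 in NAA 2 h roots. The NAA 6 h arrays were high, and the other groups lay close together (interaction -2.49 ± 0.24, adjusted p = 3.49e-05). The related kinases AUR1 (-2.04 ± 0.26) and AUR2 (-1.71 ± 0.38), and BUBR1 (-1.75 ± 0.35), a relative of spindle checkpoint proteins, moved alike, as did HTR12 (-1.42), the centromeric histone H3, and KINESIN-12B (-1.27), a motor of the dividing cell plate. Without number 1 of every group 3 of the 6 mitosis genes were called negative, where 1662 of all 22746 probe sets were. Over time with naxillin none of the 10 division genes was called by limma's adjusted p, with values between -0.21 and 0.19. Only 1.71% of all probe sets were called there, so that none of 10 lies near that share.

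None of the 10 division genes was called between naxillin 2 h and NAA 2 h, where 14.9% of all probe sets were called (6.85% higher and 8.04% lower with naxillin), and 19 of the 22 assembly factors, 8 of the 41 small-subunit and 15 of the 77 large-subunit genes were called lower with naxillin there. At 6 h all 10 were lower with naxillin, where 50.1% of all probe sets were called (26.9% higher and 23.2% lower with naxillin). Histones, with 5 measured genes of 27 listed, were mixed. HTB2 (-1.41 ± 0.30) and HTB1 (-1.07 ± 0.20), both histone H2B genes, were called negative, where 14.6% of all probe sets were. The other 3 measured H2B genes, HTB11 (0.24), HTB4 (-0.24) and AT2G28720 (0.52), were not called.

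**Figure D3:**
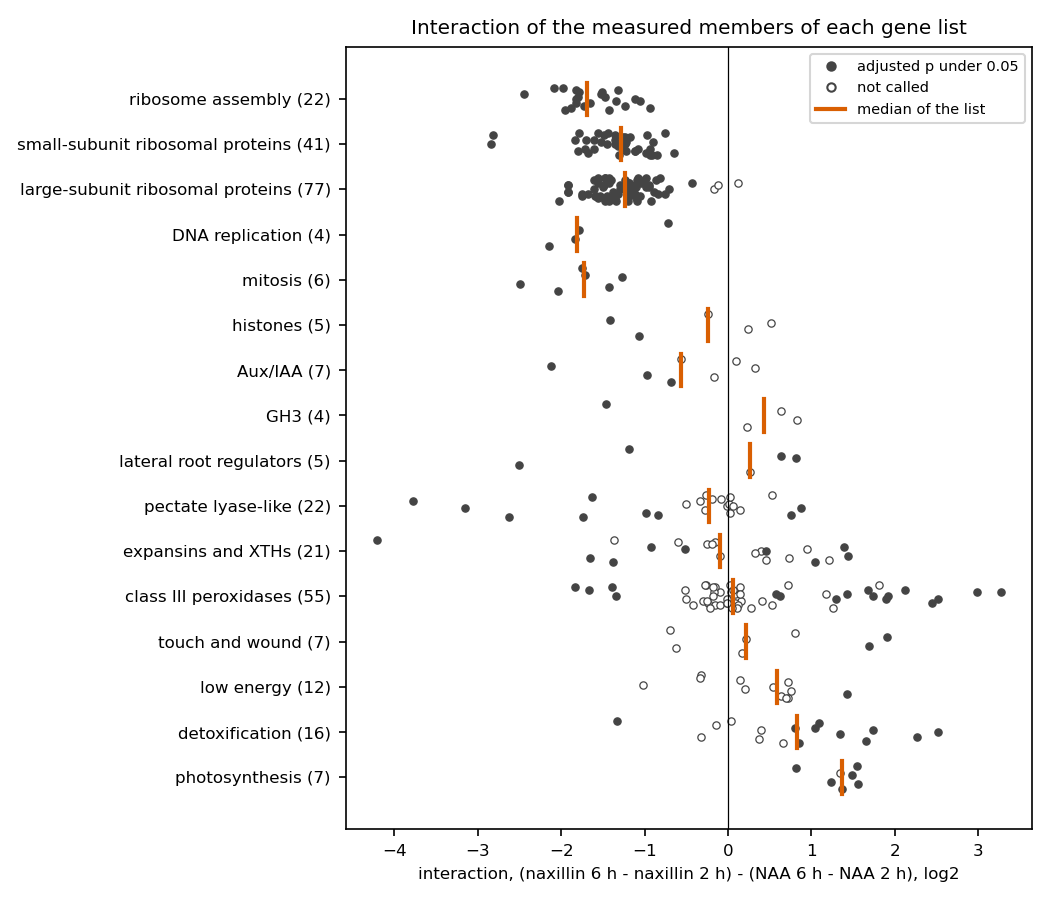
Each point is a measured gene of the list named on the left, with the number measured in brackets, and the horizontal axis is its interaction in log2 units; filled points passed an adjusted p of 0.05, open points did not, and the orange bar is the median of the list. The 3 ribosomal lists have medians of -1.69, -1.28 and -1.24, and photosynthesis has 1.37.

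Regulators of lateral roots did not behave as a group. Of 5 measured genes (21 listed), 2 were called negative and 2 positive, where 14.6% and 14.4% of all probe sets were. The median of 0.26 turned to -0.06 under spike-in scaling, where the median over all probe sets was -0.32. PUCHI, an AP2-type transcription factor of the early primordium, had 5.88, 5.45 and 5.42 in naxillin 6 h roots and 5.03, 4.60 and 4.64 in naxillin 2 h roots, against 11.19, 11.48 and 11.35 in NAA 6 h roots and 8.14, 7.58 and 8.32 in NAA 2 h roots. It was higher with NAA at both times, and the gap grew (interaction -2.50 ± 0.28, adjusted p = 9.03e-05). Its naxillin difference over time of 0.83 log2 was not called (adjusted p = 0.0606), while it rose by 3.33 log2 with NAA.

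LBD29, a direct auxin target that starts founder cell division, went the other way. It had 8.12, 8.06 and 8.48 in naxillin 6 h roots and 7.23, 7.15 and 7.48 in naxillin 2 h roots, against 12.27, 12.50 and 12.48 in NAA 6 h roots and 11.91, 12.05 and 12.38 in NAA 2 h roots. Naxillin 6 h stood above naxillin 2 h without overlap, and NAA was far above both at both times. LBD29 rose by 0.93 log2 with naxillin over time (adjusted p = 0.0138), its NAA difference of 0.31 was not called, and the interaction was 0.63 ± 0.21 (adjusted p = 0.0423). That call was lost on spike-in scaling (0.30, adjusted p = 0.301) and in a fit of all 15 arrays. It was also lost without any one of 9 of the 12 arrays, with adjusted p of 0.0541 to 0.1 and values of 0.50 to 0.68, and of the single arrays only naxillin 6 h array 2, naxillin 2 h array 3 and NAA 2 h array 1 could be left out without losing it.

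LBD16, the partner of LBD29 in this step, was not called. It had 8.25, 7.72 and 8.11 in naxillin 6 h roots and 7.87, 7.88 and 7.58 in naxillin 2 h roots, against 10.96, 11.15 and 10.92 in NAA 6 h roots and 10.99, 11.05 and 11.04 in NAA 2 h roots, and the groups of each compound overlapped. Its interaction was 0.26 ± 0.19 (adjusted p = 0.356). CR4, which RefSeq also lists as ACR4, a receptor kinase of formative cell divisions, had -1.19 ± 0.22 (adjusted p = 0.00196). LHW, a transcription factor of vascular tissue, had 0.81 ± 0.13 (adjusted p = 0.000802), with 8.19, 8.29 and 8.42 in naxillin 6 h roots and 8.21, 8.34 and 8.42 in naxillin 2 h roots, against 7.02, 7.09 and 7.15 in NAA 6 h roots and 7.85, 7.90 and 8.02 in NAA 2 h roots.

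GH3 enzymes, which attach amino acids to auxin and so take it out of the active pool, had 4 measured genes of 7 listed. Of the 4, 1 was called negative and none positive, where 14.6% and 14.4% of all probe sets were. GH3.1 stood at 6.48, 6.28 and 6.37 in naxillin 6 h roots and 4.77, 5.07 and 4.52 in naxillin 2 h roots, against 12.46, 12.42 and 12.49 in NAA 6 h roots and 11.35, 10.72 and 11.20 in NAA 2 h roots. Both 6 h groups stood above their 2 h groups without overlap, from very different starting levels. GH3.1 rose over time 3.01-fold with naxillin (adjusted p = 0.00252) and 2.57-fold with NAA (adjusted p = 5e-05), and the interaction was 0.23 ± 0.23 (adjusted p = 0.533).

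GH3.3 had 12.63, 12.64 and 12.47 in naxillin 6 h roots and 12.59, 12.11 and 10.85 in naxillin 2 h roots, against 14.54, 14.66 and 14.57 in NAA 6 h roots and 14.54, 14.52 and 14.45 in NAA 2 h roots. The NAA values lie close to the highest values on the arrays, 14.58 to 14.83, and the interaction of 0.64 ± 0.45 was not called (adjusted p = 0.335). WES1, also a GH3 enzyme, had 0.83 and was not called (adjusted p = 0.0902). GH3.17 was the called member. It had 10.31, 10.39 and 10.39 in naxillin 6 h roots and 10.30, 10.47 and 10.10 in naxillin 2 h roots, against 10.68, 10.71 and 11.34 in NAA 6 h roots and 9.35, 9.34 and 9.45 in NAA 2 h roots. Naxillin roots were below NAA roots at 6 h and above them at 2 h (interaction -1.46 ± 0.22, adjusted p = 0.000685). The mean before transfer was 10.84, so that NAA roots were below it at 2 h (mean 9.38) and near it at 6 h (mean 10.91).

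Aux/IAA genes encode the repressors that auxin removes, and many are themselves switched on by auxin. Of 7 measured (29 listed), 3 were called negative and none positive, where 14.6% and 14.4% of all probe sets were. IAA20 had 5.24, 5.31 and 5.30 in naxillin 6 h roots and 5.51, 5.35 and 5.36 in naxillin 2 h roots, against 7.99, 8.21 and 7.97 in NAA 6 h roots and 6.07, 6.01 and 6.10 in NAA 2 h roots. Replicates were tight, NAA exceeded naxillin at both times, and the gap grew (interaction -2.12 ± 0.12, adjusted p = 8.03e-07). IAA29 (-0.97 ± 0.23) had a gap between naxillin and NAA of -5.85 log2 at 6 h and already of -4.89 at 2 h. IAA18 had -0.68 ± 0.13, and IAA30 (-0.56), IAA31 (0.32), IAA33 (-0.17) and IAA34 (0.10) were not called. Without number 1 of every group, 1 of the 7 was called, where 2958 of all 22746 probe sets were. Under spike-in scaling 5 were called, all negative, where 8304 of all 22746 probe sets were negative.

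**Figure D4:**
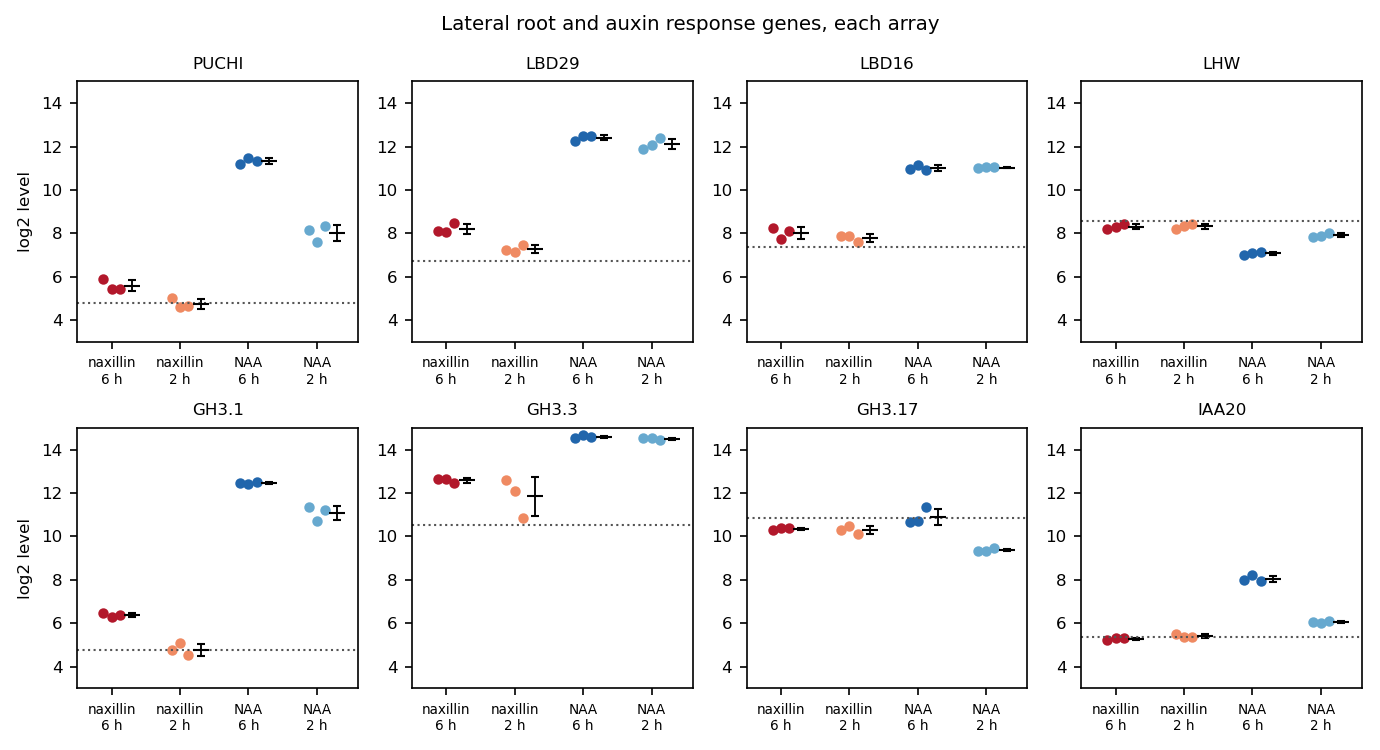
Log2 level on every array (coloured points) with mean and SD beside them (black), for 4 lateral root regulators and 4 auxin response genes; the dotted line is the mean before treatment. PUCHI and IAA20 spread apart between 2 h and 6 h with NAA, while LBD29 and GH3.1 were higher in naxillin 6 h than naxillin 2 h roots, by 0.93 and 1.59 log2.

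Pectate lyase-like enzymes cut pectin, the glue between plant cells. Of 22 measured, 7 were called negative and 2 positive, where 14.6% and 14.4% of all probe sets were, with a median of -0.23. Under spike-in scaling 13 were negative and 1 positive, where 8304 and 1474 of all 22746 probe sets were, with a median of -0.55. AT1G67750 had 5.51, 5.02 and 5.47 in naxillin 6 h roots and 5.30, 5.55 and 5.53 in naxillin 2 h roots, against 11.92, 11.55 and 11.99 in NAA 6 h roots and 8.59, 7.40 and 8.51 in NAA 2 h roots. Naxillin roots stayed near the mean level before transfer, 5.54, whereas NAA roots were above it at 2 h and further above it at 6 h (interaction -3.78 ± 0.38, adjusted p = 5.01e-05). AT4G13210 (-3.15 ± 0.20) had 7.64 to 8.26 in NAA 6 h roots and 4.77 to 4.80 in NAA 2 h roots. AT1G04680 (-2.62 ± 0.46) and AT4G13710 (-1.74 ± 0.41) were the next, and the called count fell to 4 negative without number 1, without number 2, or without naxillin 2 h array 1 or 2, NAA 6 h array 1 or NAA 2 h array 2. Over all 22746 probe sets 1662 were negative without number 1 and 1559 without number 2.

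Expansins and XTH enzymes, which loosen and remodel the wall, went both ways: 4 of 21 were called positive and 5 negative, where 14.4% and 14.6% of all probe sets were. Under spike-in scaling 2 were positive and 8 negative, where 1474 and 8304 of all 22746 probe sets were. Without number 1 or number 2 of every group 1 was positive, where 1296 and 1728 of all probe sets were. Leaving out 1 array left 1 to 5 positive. Besides EXPA15, EXPA4 (-1.38) was called negative, and EXPA7, an expansin of root hairs, was called positive. EXPA7 had 8.05, 7.85 and 7.14 in naxillin 6 h roots and 8.36, 8.96 and 7.99 in naxillin 2 h roots, against 5.67, 5.55 and 5.98 in NAA 6 h roots and 7.40, 8.05 and 8.21 in NAA 2 h roots. The NAA 6 h arrays were the lowest, and the call (1.39 ± 0.41, adjusted p = 0.0254) was lost without any one of 7 arrays, with adjusted p of 0.0546 to 0.0657; these were naxillin 6 h arrays 1 and 2, naxillin 2 h array 3, NAA 6 h arrays 1 and 2, and NAA 2 h arrays 2 and 3.

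XTH18 fell over time with both compounds, by 1.72 log2 with naxillin (adjusted p = 0.0233) and by 3.16 log2 with NAA (adjusted p = 1.55e-05). It had 5.86, 6.05 and 5.80 in naxillin 6 h roots and 6.80, 8.10 and 7.96 in naxillin 2 h roots, against 4.87, 5.46 and 5.62 in NAA 6 h roots and 8.03, 8.82 and 8.57 in NAA 2 h roots. Both 6 h groups were below their 2 h groups and near the mean level of 5.48 before transfer. The interaction of 1.44 ± 0.45 (adjusted p = 0.032) was not called under spike-in scaling (1.11, adjusted p = 0.0655), nor without naxillin 6 h array 1 or 2, NAA 6 h array 1 or NAA 2 h array 2 or 3 (1.22 to 1.46, adjusted p of 0.0587 to 0.0801).

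Class III peroxidases, secreted enzymes that stiffen or loosen walls through peroxide, had 13 of 55 measured genes called positive and 4 negative, where 14.4% and 14.6% of all probe sets were. The median interaction was 0.06. Under spike-in scaling it was -0.27, with 11 positive and 16 negative. Over all 22746 probe sets the median under that scaling was -0.32, with 1474 positive and 8304 negative calls. AT4G33420 had 11.84, 11.90 and 11.70 in naxillin 6 h roots and 12.01, 11.85 and 12.07 in naxillin 2 h roots, against 8.38, 9.14 and 7.90 in NAA 6 h roots and 11.69 to 12.03 in NAA 2 h roots. It dropped late with NAA alone (interaction 3.27 ± 0.34, adjusted p = 5.58e-05). AT4G30170 (2.52 ± 0.36) and AT2G41480 (2.44 ± 0.43) had the same form.

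AT5G39580 was a peroxidase gene that changed sides. It had 7.45, 7.64 and 7.05 in naxillin 6 h roots and 6.70, 6.20 and 6.45 in naxillin 2 h roots, against 5.84, 6.02 and 5.92 in NAA 6 h roots and 7.92, 8.53 and 7.50 in NAA 2 h roots. Naxillin roots were above NAA roots at 6 h and below them at 2 h, with no overlap at either time (interaction 2.98 ± 0.33, adjusted p = 8.62e-05). The most negative of the family was AT1G68850 (-1.83), named after its value was seen.

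Genes of detoxification, mostly glutathione transferases and UDP-glucosyltransferases that attach small molecules to foreign compounds, had 16 measured genes of 53 listed. Of the 16, 9 were called positive and 1 negative, where 14.4% and 14.6% of all probe sets were, with a median of 0.83. GSTU26 had 8.45, 8.69 and 8.88 in naxillin 6 h roots and 8.49, 9.25 and 8.89 in naxillin 2 h roots, against 4.93, 4.93 and 5.0 in NAA 6 h roots and 7.05, 8.13 and 7.86 in NAA 2 h roots. Naxillin roots held their level, and NAA 6 h roots were well below all others (interaction 2.52 ± 0.35, adjusted p = 0.000416). GSTU20 (2.27 ± 0.63) and GSTU27 (1.65 ± 0.38) also fell late with NAA. Under spike-in scaling 5 of the 16 were called positive and 2 negative, where 1474 and 8304 of all 22746 probe sets were. Without number 1 of every group 3 were called positive, where 1296 of all 22746 probe sets were.

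MSRB9, a methionine sulfoxide reductase that repairs oxidised proteins, fell with both compounds. It had 7.82, 7.75 and 8.47 in naxillin 6 h roots and 9.57, 10.59 and 11.17 in naxillin 2 h roots, against 5.33, 5.61 and 5.69 in NAA 6 h roots and 8.81, 10.29 and 10.03 in NAA 2 h roots. The fall was 2.43 log2 with naxillin and 4.17 log2 with NAA, and NAA 6 h roots ended below the mean level of 7.69 before transfer. The interaction of 1.74 ± 0.59 had an adjusted p of 0.0458 and was not called without any one of 10 arrays (1.3 to 1.87, adjusted p up to 0.109); the 2 arrays whose removal kept it were naxillin 2 h array 3 and NAA 2 h array 1.

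Both measured genes (17 listed) of aliphatic glucosinolate synthesis, the route to mustard oil precursors from methionine, were called positive, where 14.4% of all probe sets were. BCAT4, the aminotransferase at its start, had 10.19, 9.09 and 10.77 in naxillin 6 h roots and 10.72, 11.21 and 11.97 in naxillin 2 h roots, against 5.72, 6.90 and 6.14 in NAA 6 h roots and 10.73, 11.03 and 11.42 in NAA 2 h roots. NAA roots fell by 4.81 log2 and lay far below the rest at 6 h. The naxillin difference of -1.28 was not called (adjusted p = 0.192), and the interaction was 3.52 ± 0.62 (adjusted p = 0.00153). AT2G31790 had 2.24 ± 0.53 (adjusted p = 0.00835).

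Nuclear genes of photosynthesis, which are markers of green tissue, had 7 measured genes of 48 listed. Of the 7, 6 were called positive, where 14.4% of all probe sets were, with a median of 1.37. PSAE-1, a photosystem I subunit, had 8.49, 8.61 and 8.35 in naxillin 6 h roots and 8.50, 8.67 and 8.40 in naxillin 2 h roots, against 6.69, 6.81 and 6.61 in NAA 6 h roots and 8.15, 8.43 and 8.15 in NAA 2 h roots. Only the NAA 6 h arrays were low (interaction 1.49 ± 0.15, adjusted p = 5.76e-05). RCA, which activates Rubisco, had 1.55 ± 0.24, LHCB4.1, a light-harvesting protein, had 1.37 ± 0.29, and PSAN, also of photosystem I, had 1.56 ± 0.45. The PSAN call was lost without any one of 6 arrays (1.33 to 1.5, adjusted p of 0.0522 to 0.0576), namely naxillin 6 h array 1 or 2, naxillin 2 h array 2 or 3, NAA 6 h array 1 and NAA 2 h array 1. Under spike-in scaling 4 of 7 were called positive, where 1474 of all 22746 probe sets were. Without number 2 of every group 3 were called positive, where 1728 of all probe sets were. As shoot markers moved with NAA at 6 h, their part in the other results was not tested; their median member lay at 7.84 to 8.61 in naxillin 6 h roots, 7.45 to 8.50 in naxillin 2 h roots, 5.73 to 6.25 in NAA 6 h roots and 6.79 to 7.54 in NAA 2 h roots.

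On the list of peroxisomal beta-oxidation and IBA conversion, 3 of 29 genes had a named probe set, namely AIM1, PEX4 and ICL. The IBA conversion genes IBR1, IBR3 and IBR10 were not among them. AIM1, a multifunctional protein of fatty acid beta-oxidation, had 11.26, 11.28 and 11.25 in naxillin 6 h roots and 11.22, 11.32 and 11.18 in naxillin 2 h roots, against 10.85, 10.89 and 10.73 in NAA 6 h roots and 11.09, 11.07 and 11.23 in NAA 2 h roots. The NAA 6 h arrays were slightly low, and the interaction was 0.33 ± 0.11 (adjusted p = 0.0431), which fell to 0.00 under spike-in scaling and lost its call without any one of 9 arrays, all but naxillin 2 h array 2, NAA 6 h array 2 and NAA 2 h array 2 (0.28 to 0.35, adjusted p of 0.0543 to 0.0996). PEX4 (0.25) and ICL (-0.36) were not called, so that 1 of 3 was, a share near the 29.0% of all probe sets called.

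Low-energy genes, most of them for the breakdown of branched-chain amino acids and lysine when sugar is short, had 1 of 12 called, where 29.0% of all probe sets were. That was AT4G33150, the bifunctional enzyme that starts lysine breakdown (RefSeq synonym LKR/SDH), with 11.26, 11.68 and 10.63 in naxillin 6 h roots and 11.58, 11.03 and 10.88 in naxillin 2 h roots, against 9.07, 9.35 and 8.81 in NAA 6 h roots and 10.66, 10.73 and 10.03 in NAA 2 h roots (interaction 1.43 ± 0.40, adjusted p = 0.0181). Only its NAA 6 h arrays stood apart, and it was not called without number 1 (1.51, adjusted p = 0.115) or number 2 (1.12, adjusted p = 0.15) of every group. Under spike-in scaling 1 of the 12 was positive and 3 were negative, where 1474 and 8304 of all 22746 probe sets were. The count of positive calls was 4 without naxillin 6 h array 3, and was 2 without naxillin 6 h array 1, naxillin 2 h array 1 or NAA 2 h array 3.

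Touch and wound genes had 2 of 7 called, both positive, a share close to the 29.0% of all probe sets called. WRKY22, a transcription factor of defence signalling, had 7.89, 8.22 and 8.12 in naxillin 6 h roots and 8.27, 8.34 and 8.99 in naxillin 2 h roots, against 6.23, 6.39 and 6.29 in NAA 6 h roots and 8.45, 8.57 and 8.99 in NAA 2 h roots. It dropped late with NAA to below its mean level before transfer, 7.13 (interaction 1.91 ± 0.27, adjusted p = 0.000399). WRKY53, a related factor, had 5.39, 5.41 and 5.43 in naxillin 6 h roots and 5.49, 5.51 and 5.80 in naxillin 2 h roots, against 6.59, 6.33 and 6.07 in NAA 6 h roots and 8.03, 8.48 and 8.11 in NAA 2 h roots. NAA roots were high at 2 h and had come back most of the way by 6 h, and naxillin roots were low at both times (interaction 1.69 ± 0.21, adjusted p = 0.000189).

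Single measured members of the remaining lists were AT1G14130, of auxin transport and turnover, with 1.03 ± 0.22 (adjusted p = 0.00444), and GSO1, a receptor kinase of the endodermal barrier, with 0.62 ± 0.14 (adjusted p = 0.00716), which was 0.30 and not called under spike-in scaling. Of the 3 root hair genes measured, EXPA7 alone was called, a share near the 29.0% of all probe sets called, and EXPA18 (0.73) and SCN1 (-0.10) were not. The cytokinin response genes RR16 (0.16 ± 0.16) and ARR15 (-0.07 ± 0.19) were not called, where 29.0% of all probe sets were. No gene of the ethylene list had a named probe set.

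Few genes with a called interaction differed over time with naxillin alone. Among them, counting 1 probe set per gene, 12 differed by at least 1 log2 downward with naxillin alone and 8 upward. Naxillin's own change was called for 8 of the 12 and 3 of the 8. Over all probe sets, whether the interaction was called or not, 62 were lower and 32 higher by that limit with naxillin alone. The genes given next, other than XTH21, were chosen after their values were seen. XTH21 had 4.91, 4.76 and 5.22 in naxillin 6 h roots and 6.66, 7.03 and 7.14 in naxillin 2 h roots, against 3.81, 4.17 and 4.36 in NAA 6 h roots and 4.49, 4.36 and 4.49 in NAA 2 h roots. Naxillin 2 h was the high group, and naxillin 6 h was back near the mean before transfer, 5.31 (naxillin fell by 1.98 log2, adjusted p = 0.00139; interaction -1.65 ± 0.23, adjusted p = 0.000447).

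NANA, an aspartic protease of the chloroplast, had 10.16, 10.08 and 10.04 in naxillin 6 h roots and 11.24, 11.17 and 11.13 in naxillin 2 h roots, against 11.47, 11.30 and 11.68 in NAA 6 h roots and 11.55, 11.68 and 11.52 in NAA 2 h roots. With both compounds it was above the mean before transfer, 10.09, at 2 h, and only naxillin roots returned (interaction -0.99, adjusted p = 0.000419). SWEET4, a sugar transporter, had 4.88, 4.78 and 4.52 in naxillin 6 h roots and 6.12, 6.05 and 5.52 in naxillin 2 h roots, against 4.55, 4.54 and 4.68 in NAA 6 h roots and 4.50, 4.64 and 4.48 in NAA 2 h roots. It was high with naxillin at 2 h alone (interaction -1.21, adjusted p = 0.00141). AT5G52050, a transporter listed by RefSeq as DTX50 (-1.02), and LAC16, a laccase (-2.36), were also called negative, although the naxillin difference of LAC16 over time, -1.56, was not called (adjusted p = 0.0605).

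Among the 8 genes higher at 6 h with naxillin alone, TRI, annotated as a tropinone reductase, had 9.63, 9.59 and 9.84 in naxillin 6 h roots and 8.62, 8.56 and 8.80 in naxillin 2 h roots, against 9.51, 10.26 and 9.43 in NAA 6 h roots and 9.98, 9.40 and 9.94 in NAA 2 h roots. Naxillin 2 h was the low group, below the mean of 10.41 before transfer (interaction 1.06, adjusted p = 0.0194). BGLU46, a beta-glucosidase, had 9.96, 10.21 and 9.83 in naxillin 6 h roots and 9.37, 9.01 and 8.25 in naxillin 2 h roots, against 8.18, 8.79 and 8.25 in NAA 6 h roots and 9.16, 9.45 and 8.99 in NAA 2 h roots (interaction 1.92, adjusted p = 0.00239). For BGLU46 the naxillin difference of 1.12 was not called (adjusted p = 0.0552), while the NAA difference of -0.80, under the 1 log2 limit, was (adjusted p = 0.0268). AT5G61590, the ethylene-response-factor DEWAX that represses wax synthesis, had an interaction of 2.06 (adjusted p = 0.00417). Its naxillin difference of 1.18 was not called (adjusted p = 0.0866), while its NAA difference of -0.88 was (adjusted p = 0.0372).

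**Figure D5:**
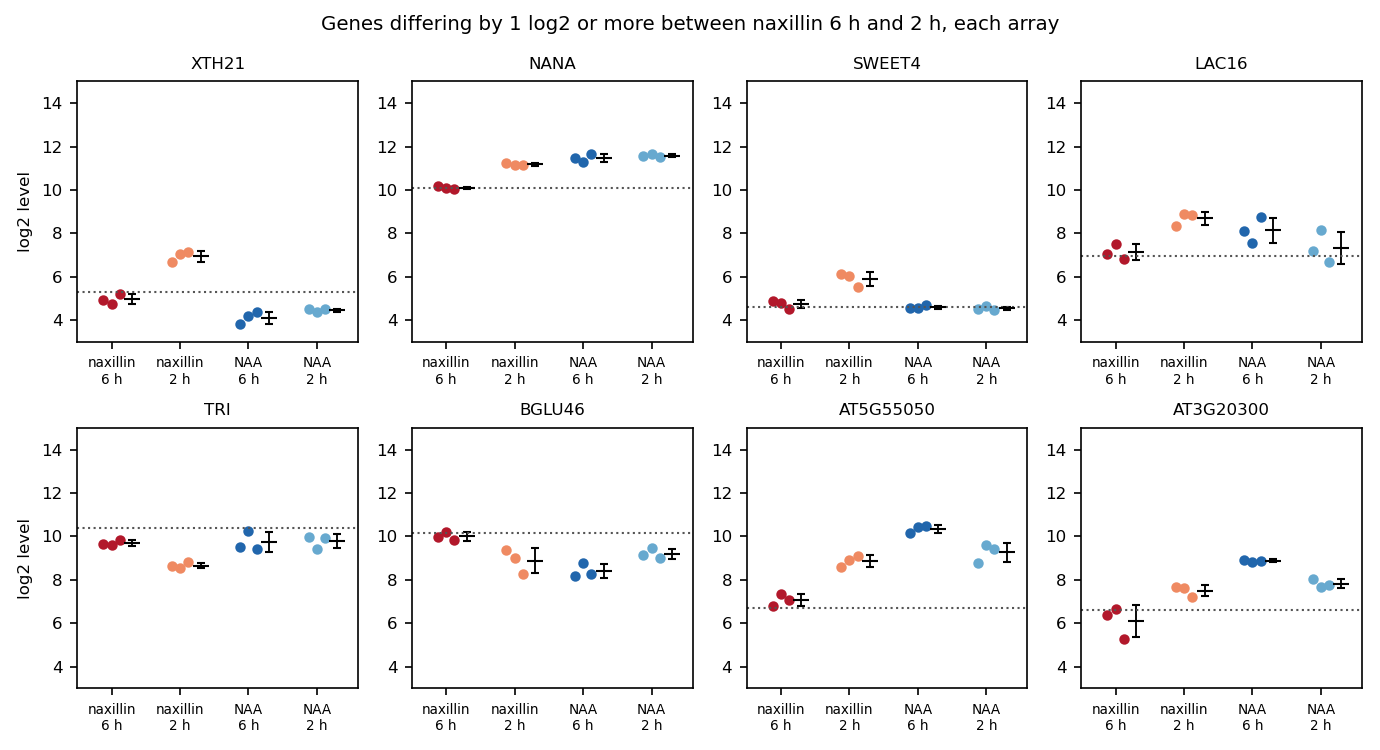
Log2 level on every array (coloured points) with mean and SD beside them (black), for 8 genes whose naxillin groups differed by at least 1 log2; the dotted line is the mean before treatment. XTH21, NANA, SWEET4 and LAC16 lie above the dotted line in naxillin 2 h roots and near it in naxillin 6 h roots (4.96 for XTH21, with 5.31 before treatment). NANA is higher still with NAA at both times.

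Distances from the level before transfer are given for genes that were themselves chosen by their differences over time, so that they describe these genes and test nothing. In all 12 genes lower with naxillin alone, and in 7 of the 8 higher, naxillin 6 h roots were closer to the mean before transfer than naxillin 2 h roots; over all 13355 genes this was so in 58.4%. Of the 828 genes higher at 6 h with NAA alone, NAA 6 h roots were no closer than NAA 2 h roots to the mean before transfer in 820 (99.0%), and of the 453 lower with NAA alone, in 395 (87.2%), against 71.4% of all genes and 93.4% of all called genes. Every distance uses the same 3 arrays before transfer.

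Opposite movements of at least 1 log2 were seen at 7 named genes, of which the 6 largest are given. AT5G55050 (chr5:22337626-22340389) had 6.78, 7.33 and 7.06 in naxillin 6 h roots and 8.57, 8.93 and 9.09 in naxillin 2 h roots, against 10.14, 10.44 and 10.47 in NAA 6 h roots and 8.76, 9.60 and 9.43 in NAA 2 h roots. At 2 h the compounds overlapped, above the mean of 6.69 before transfer, and at 6 h naxillin roots were back near it while NAA roots were higher still. It fell by 1.81 log2 with naxillin (adjusted p = 0.00536) and rose by 1.09 log2 with NAA (adjusted p = 0.00181), and the interaction was -2.90 ± 0.31 (adjusted p = 7.32e-05).

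AT3G20300 had the same form, with 6.36, 6.67 and 5.29 in naxillin 6 h roots and 7.66, 7.61 and 7.21 in naxillin 2 h roots, against 8.93, 8.80 and 8.89 in NAA 6 h roots and 8.06, 7.68 and 7.74 in NAA 2 h roots. It fell by 1.38 log2 with naxillin (adjusted p = 0.0328) and rose by 1.05 log2 with NAA (adjusted p = 0.00986). AT5G05250 was the mirror image, with 9.10, 9.17 and 9.30 in naxillin 6 h roots and 7.93, 8.45 and 8.15 in naxillin 2 h roots, against 7.51, 7.43 and 6.34 in NAA 6 h roots and 8.41, 8.38 and 8.42 in NAA 2 h roots. Its naxillin difference of 1.01 log2 was not called (adjusted p = 0.0751), its fall of 1.31 log2 with NAA was (adjusted p = 0.00128), and its interaction was 2.32 ± 0.35 (adjusted p = 0.000676).

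In the other 3 neither change alone was called, although the interaction was. AT4G21870 had 7.98, 7.09 and 9.90 in naxillin 6 h roots and 6.52, 6.98 and 7.10 in naxillin 2 h roots, against 7.57, 7.54 and 8.30 in NAA 6 h roots and 8.96, 8.87 and 9.99 in NAA 2 h roots. Its naxillin 6 h arrays spread widely, and the 6 h groups overlapped (interaction 2.92 ± 0.80, adjusted p = 0.0173). AT1G47400 had 2.65 ± 0.76 (adjusted p = 0.0218), not called without NAA 2 h array 2 (2.54, adjusted p = 0.0508), and AT5G08250 had -2.59 ± 0.71 (adjusted p = 0.0171). Without number 1 of every group none of the 3 was called, with adjusted p of 0.154 for AT4G21870, 0.0972 for AT1G47400 and 0.176 for AT5G08250. Without number 3, AT1G47400 had 1.58 (adjusted p = 0.0961) and AT5G08250 -1.63 (adjusted p = 0.0908).

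The interaction can also be read as a gap between the compounds. At 6 h, 11397 probe sets (50.1%) differed between naxillin and NAA, and at 2 h 3385 (14.9%), or 2240 without NAA 2 h array 3. Of the probe sets called for the interaction, 3137 had means at least 1 log2 apart at 6 h and less than 1 apart at 2 h, and at 393 a gap of at least 1 log2 grew. At 121 such a gap closed to under 1, at 19 it shrank but stayed at 1 or more, and at 11 it changed sign. At the remaining 2920 it was under 1 log2 at both times.

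Genes whose gap shrank were few. Besides WRKY53 and LBD29, the gap of HAT2, a homeodomain gene switched on by auxin, was -1.03 log2 at 6 h and -2.11 at 2 h (interaction 1.07, adjusted p = 0.00082), and that of ATL63, a RING-type ubiquitin ligase, was -3.16 at 6 h and -4.18 at 2 h (interaction 1.02, adjusted p = 0.00354). Mean levels of HAT2 were 8.47 in naxillin 6 h roots and 8.59 in naxillin 2 h roots, against 9.51 in NAA 6 h roots and 10.70 in NAA 2 h roots, so that NAA roots came down. Those of ATL63 were 5.64 and 4.89 in naxillin roots at 6 h and 2 h, against 8.80 and 9.06 in NAA roots at 6 h and 2 h. B120, a receptor-like kinase, changed sides like AT5G39580, with a gap of 1.58 at 6 h and -1.22 at 2 h (interaction 2.80, adjusted p = 2.46e-05). HAT2, ATL63 and B120 were picked out after their values were seen.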

How the data were processed

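RNA from root pieces was hybridised to Affymetrix ATH1 arrays. The deposited table holds log2 values, 1 per probe set and array, normalised by RMA with affy 1.36.0 per the submitters' processing notes; it has no detection calls. Groups were taken from the sample labels. A linear model of the 12 treated arrays, fitted by limma 3.58.1 (R 4.3.3), gave each of the 4 groups its mean, used no block and served all contrasts. Every adjusted p is from limma's moderated test, adjusted by Benjamini-Hochberg over 22746 probe sets, with 64 array controls left out and a threshold of 0.05. The fit was also run on 5 simulated sets in which 200 of 22746 probe sets had an interaction and noise was independent between arrays. It recovered 11.3%, 58.5% and 93% of interactions of 0.5, 1 and 2 log2. Of its calls 6.72% were false, more than the threshold of 0.05 aims at. In the data 29.0% of probe sets were called, so that these shares do not carry over to the 6601 calls.

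Probe sets were named through the platform annotation and RefSeq (TAIR10.1), and a gene with several was represented by the one with the highest mean. Named genes were the 12 largest interactions each way, the 6 largest opposite movements, up to 4 called members per list (or 2 where none was called) and 8 fixed genes, of which 5 were measured; any other gene named was chosen after its values were seen. The contrast, the 24 gene lists and the fixed genes were chosen with earlier results of these data known. Promoter sequences were not used here. The labels do not say whether equal replicate numbers mark the same experiment. A block was to be used only if all 18 pairs of same-numbered arrays correlated above 0.1, and 15 did. Same-numbered arrays were thus alike in part, and a fit with the block is given as an alternative. The number of arrays limits the precision. Plots used matplotlib 3.10.9 under Python 3.11.15.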

Additional observations from a re-analysis of the deposited data

Results flagged for a closer look

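The change between 2 h and 6 h was tested to differ between naxillin and NAA at 6601 probe sets, by limma with Benjamini-Hochberg adjustment. Among them, 7 named genes moved by at least 1 log2 in opposite ways with the compounds. Higher late with naxillin and lower late with NAA were AT4G21870 (interaction 2.92), AT1G47400 (2.65), AT5G05250 (2.32) and AT1G08670 (2.16). Lower late with naxillin and higher late with NAA were AT5G55050 (-2.90), AT5G08250 (-2.59) and AT3G20300 (-2.43). Of these, both changes over time were called for AT5G55050, AT3G20300 and AT1G08670; AT1G08670 had 1.06 log2 with naxillin (adjusted p = 0.0475 in limma) and -1.10 log2 with NAA (adjusted p = 0.00261).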

How the results depend on the processing

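The 6601 interaction calls became 4007 at an adjusted p under 0.01 and 2871 with a limit of 1 log2. Leaving out arrays gave 2958 to 7151 calls, with the low end reached without number 1 of every group. Calls over time with naxillin, 390 as reported, were 831 under spike-in scaling and 75 to 433 without 1 array. Calls between naxillin and NAA at 2 h, 3385 as reported, ran between 2240 and 3795 without 1 array. No interaction was called in the opposite direction under any setting run. With the replicate block there were 7930 interaction calls, 913 over time with naxillin and 4688 between the compounds at 2 h. The rule for using the block in the main fit asked for all 18 same-numbered pairs to correlate above 0.1. Deviations of same-numbered arrays did so in 15 of 18 pairs, between -0.19 and 0.63, and 9 of 12 arrays correlated best with their own number. Same-numbered arrays were thus alike in part, and the labels do not say whether they mark the same experiment.

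Of 87 called named genes, 59 kept their call under every alternative and 28 lost it under at least 1. Values that changed sign were not called: under spike-in scaling RR16 had -0.17, LBD16 -0.06 and GH3.1 -0.10, and ARR15 had 0.11 with array weights and -0.17 to 0.05 without 1 array. The cause of these shifts was not tested. Averaging the probe sets of a gene gave no value, since each named gene had 1 probe set. The search for promoter motifs was not run, and the table holds no signal over background, so that low levels have no stated limit.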
